A study of Homo sapiens with 36 samples.

Results

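Intronless genes make mRNAs that never pass through the spliceosome, and all of their sequence is exon. The clusters described here are the PAR-CLIP clusters whose midpoint lies, on the same strand, in a nuclear protein-coding gene of GENCODE 44 (GRCh38) of which every protein_coding transcript has 1 exon, with the replication-dependent histone genes left out. By this rule 942 of 20033 nuclear protein-coding genes are intronless, and 158 of them (16.8%) held 1888 of the 278185 clusters in the 18 deposited lists. The other 784 held no cluster in any list.

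The lists come from 3 lines of HEK293 Flp-In T-REx cells, a human embryonic kidney line with an inducible expression cassette. The first line carried FLAG-tagged SCAF4 and the second FLAG-tagged SCAF8, each induced overnight with doxycycline (100 ng/mL in the labels), and the third was the parental line, which has no FLAG-tagged protein. The labels give doxycycline for the FLAG lines alone, whereas the study's methods give it, at another dose, for the parental line too, and which of these holds is not known here. Cells of all lines received 100 μM 4-thiouridine (4SU) overnight and a pulse of 500 μM for 2 h, and were irradiated at 365 nm with 2000 J/m2. In each line, 3 replicates gave a FLAG immunoprecipitation (IP) and an input, a 1% sample per the study's methods, taken here as part of the same extract. The FLAG IP of the parental line is called control IP. The 36 libraries covered a soluble and a chromatin fraction of each, whose reads were combined, so that each group has 3 lists and the fractions cannot be compared. The lists of SCAF4 IP and SCAF8 IP are together called SCAF IP. The tagged proteins came from an added copy in cells that keep their own SCAF4 and SCAF8. The lists held 1621 (control IP replicate 3) to 54404 clusters (SCAF4 IP replicate 2), and they hold no reads, so the read depth behind a cluster is unknown. A cluster is a stretch of RNA called from T→C transitions, the mark that crosslinked 4SU leaves in cDNA, and its presence depends on the abundance of the RNA as well as on crosslinking.

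As background, intronless mRNAs depend on export and 3' end formation signals within the transcript, since they lack the protein complexes that splicing leaves on an mRNA. They encode many immediate early transcription factors, heat shock proteins and receptors of the G protein-coupled family, among them the odorant and bitter taste receptors. SCAF4 and SCAF8 are relatives that bind the C-terminal domain of RNA polymerase II through a CTD-interaction domain and RNA through an RNA recognition motif.

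The rule was checked against the structure of the genes. Of the 1888 clusters, 1680 had their midpoint in the single exon of a protein_coding transcript, in 157 genes, and 208 lay in the gene record outside it. TAS2R14, a bitter taste receptor gene, accounted for 205 of these 208. Its record spans 234166 nt on chromosome 12 through a spliced transcript that is not protein_coding, 0 of its clusters were in its own exon, and all 205 lay inside another protein-coding gene of the same strand as well. The remaining 3 were those of LDOC1, which had 1 cluster in its exon. A further 203 clusters in a single exon also lay within another protein-coding gene of the same strand, which left 1477 in the exon of an intronless gene alone. By sequence, 224 of the 1888 clusters (11.9%) matched another place of the genome (95% identity over 80% of the cluster), and 274 (14.5%) matched that or the transcript of another gene. Such copies cannot be told apart, because the authors' alignment reported a single place for reads that match several. HSPA1B is an example, with 39 of 62 clusters matching HSPA1A. Of the 1888 clusters, 0 were assigned to HSPA1A, and clusters there that do not meet the rule were not counted. The 13 mitochondrially encoded genes also meet the rule on exons, but 0 clusters of the 18 lists were on the mitochondrial chromosome. Positions and transcript parts below use the 1680 clusters in single exons.

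The sequences below are shown because clusters recurred there in every SCAF IP list. Their regions were found in other lists too, in all 9 inputs for CREBZF, HNRNPA0 and CENPB, in 7 for HSPA1B and in 1 to 5 for the others, and in a control IP for all but UTP3, and none remained as a consensus region after the removal steps described further on. Each is the 100 nt around the place that clusters of all 6 SCAF IP lists covered, for 9 of the genes, among the 14 with most regions, in which such a place lay within the coding sequence. Coordinates are on GRCh38, letters are those of the transcribed strand from 5' to 3', and capitals mark CGG and CGA.
CREBZF coding sequence, chr11:85664422-85664521, minus strand: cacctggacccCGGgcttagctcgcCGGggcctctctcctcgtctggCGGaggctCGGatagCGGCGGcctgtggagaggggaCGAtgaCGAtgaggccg
SOX4 coding sequence, chr6:21595721-21595820, plus strand: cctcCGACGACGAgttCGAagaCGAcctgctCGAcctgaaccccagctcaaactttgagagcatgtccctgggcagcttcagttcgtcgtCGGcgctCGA
HSPA1B coding sequence, chr6:31829151-31829250, plus strand: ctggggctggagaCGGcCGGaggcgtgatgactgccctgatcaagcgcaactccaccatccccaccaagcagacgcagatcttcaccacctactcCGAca
FEM1A coding sequence, chr19:4793730-4793829, plus strand: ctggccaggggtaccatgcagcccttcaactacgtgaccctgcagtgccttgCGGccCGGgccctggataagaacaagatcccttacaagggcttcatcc
TSPYL1 coding sequence, chr6:116278907-116279006, minus strand: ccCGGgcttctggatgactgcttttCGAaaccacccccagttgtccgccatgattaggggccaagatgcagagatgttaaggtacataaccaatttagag
HNRNPA0 coding sequence, chr5:137753687-137753786, minus strand: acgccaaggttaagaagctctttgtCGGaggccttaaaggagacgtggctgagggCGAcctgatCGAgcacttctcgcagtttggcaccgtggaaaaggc
UTP3 coding sequence, chr4:70689932-70690031, plus strand: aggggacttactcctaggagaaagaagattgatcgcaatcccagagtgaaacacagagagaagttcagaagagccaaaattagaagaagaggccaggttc
CENPB coding sequence, chr20:3784910-3785009, minus strand: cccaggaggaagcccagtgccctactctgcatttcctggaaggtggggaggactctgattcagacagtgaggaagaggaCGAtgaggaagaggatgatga
CSTF2T coding sequence, chr10:51698953-51699052, minus strand: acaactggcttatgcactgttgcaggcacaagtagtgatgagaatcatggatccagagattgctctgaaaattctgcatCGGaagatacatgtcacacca
CGG or CGA occurred in 8 of these 9 windows, with 8 matches in CREBZF and 8 in SOX4, and in UTP3 it did not occur. Of all 151481 clusters in exons of protein-coding genes, intronless and spliced, 69.7% had CGG or CGA within 100 nt around the midpoint, searched on the transcribed strand. The HSPA1B and FEM1A windows belong to genes with near-identical copies, HSPA1A and pseudogenes named after FEM1A.

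The first comparison asked whether intronless genes took a larger or smaller part of the clusters in the SCAF IP than in the inputs of the same extracts. SCAF4 IP had 0.742, 0.676 and 0.586% of its clusters in intronless genes in replicates 1, 2 and 3, and SCAF8 IP had 0.627, 0.618 and 0.617%. The inputs had 0.905, 0.860 and 0.897% in the FLAG-SCAF4 line and 0.579, 0.849 and 0.955% in the FLAG-SCAF8 line. Input shares were therefore above those of all 6 IP lists in 5 of 6 lists, and SCAF8 input replicate 1 was below all of them. The mean log2 share was 0.38 lower in the IP lists (−7.28 against −6.90 on the log2 scale, two-sided exact permutation test, n = 6 and 6, p = 0.0173), and the p adjusted over the 15 planned comparisons was 0.117, so the difference did not pass. It was 0.07 lower, with p = 0.725 by the same exact permutation test, in genes of which every transcript of any type has 1 exon, and 0.30 lower for midpoints in the single exon (exact permutation test, p = 0.0671). Within the pairs of replicate number, the IP share was below its input in 5 of 6 pairs, and the paired test with the replicate as a block gave p = 0.0625 (exact permutation).

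**Figure D1:**
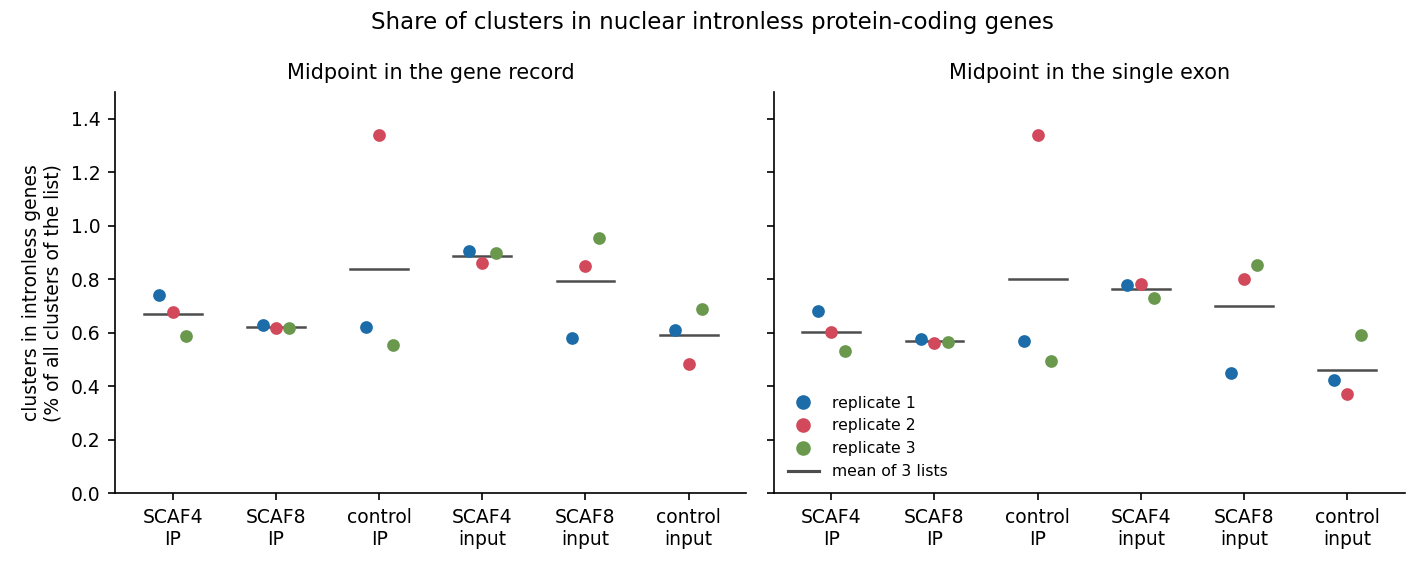
Percent of the clusters of each list whose midpoint was in the record (left) or in the single exon (right) of a nuclear intronless gene, by group. Points are lists coloured by replicate and bars are means of 3 lists; control IP replicate 2 stands at 1.34% in both panels, above all other lists.

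By line, the log2 share was 0.43 lower in SCAF4 IP than in SCAF4 input, with no overlap of the lists (exact permutation test, n = 3 and 3, p = 0.1, the smallest this design allows), and 0.33 lower in SCAF8 IP than in SCAF8 input (exact permutation test, n = 3 and 3, p = 0.4). SCAF4 IP and SCAF8 IP differed by 0.10 (exact permutation test, n = 3 and 3, p = 0.4), and the sign of that difference turned when clusters in exons of protein-coding genes were the denominator (−0.05). The control IP had 0.623, 1.34 and 0.555% of its clusters in intronless genes. Replicate 2 of it is a short list, with 31 of 2314 clusters (exact Clopper-Pearson 95% interval 0.912 to 1.90%, counting error only). These 31 clusters were spread over 21 genes, all of which also held input clusters, with 5 in JUN and 3 in ATXN7L3B as the most. The log2 share was 0.30 lower in the SCAF IP than in the control IP (exact permutation test, n = 6 and 3, p = 0.321), and 0.08 higher without replicate 2. The control IP had a mean of 0.42 more on the log2 scale than its own input (exact permutation test, n = 3 and 3, p = 0.5), which was −0.11 without replicate 2. The excluded histone genes, for comparison, held 0.199 to 0.427% of the clusters of the 6 SCAF IP lists and 0.624 to 1.29% of those of the 9 inputs.

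Intronless genes were seen more often in the longer lists. A cluster of a SCAF IP list was found in 156 of the 158 genes, a cluster of an input in 75 and a cluster of a control IP in 39. SCAF4 IP lists reached 147 genes and SCAF8 IP lists 124, and 115 genes were shared by both, which is 78.2% of the former and 92.7% of the latter. For these counts no values over all protein-coding genes are given, so they do not show whether intronless genes differ from other genes. In all 6 SCAF IP lists, 37 genes held a cluster. Each of the 37 also had a cluster in at least 1 input, and 27 (73.0%) had one in a control IP. Among all 3433 protein-coding genes with clusters in all 6 lists, the corresponding shares were 94.1% and 75.4%. Within single exons, genes with a cluster had 1.82 to 2.30 clusters per list in the 6 IP lists, against 2.52 to 4.16 for exons of spliced genes, and the exons were shorter, with a median of 2601.5 nt against 3709.5 nt for the other protein-coding genes with clusters. Per kb of exon, the mean number of clusters per IP list was 0.40 in intronless genes and 0.43 in the others, and per input list 0.131 and 0.106.

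Regions were made by merging overlapping clusters of the 6 SCAF IP lists, and those with clusters of at least 2 lists were counted. The 14 genes with most regions held 445 of the 1235 clusters of intronless genes in these lists (36.03%). TAS2R14 came first, with 27 regions and 114 of the 445 clusters, all of them outside its exon and within another protein-coding gene. CREBZF on chromosome 11, which encodes a transcription regulator of the basic leucine zipper family, had 6 regions. Its clusters numbered 3, 9 and 7 in SCAF4 IP and 8, 5 and 8 in SCAF8 IP, and 6, 3 and 2 in SCAF4 input, 8, 1 and 2 in SCAF8 input and 7, 2 and 1 in control input, with 3, 0 and 0 in control IP. Inputs and IP lists overlapped, and of its 40 IP clusters 26 lay in the 3' UTR and 12 in the coding sequence. PURB on chromosome 7, which encodes a protein that binds single-stranded nucleic acids, had 6 regions as well, with 3, 12 and 5 clusters in SCAF4 IP, 2, 1 and 5 in SCAF8 IP and 0 to 4 in the 9 inputs. No single region of PURB was found in more than 4 of the 6 IP lists.

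ATXN7L3B on chromosome 12, an ataxin 7-like gene, had 5, 7 and 4 clusters in SCAF4 IP, 5, 5 and 5 in SCAF8 IP, 0 to 7 in the inputs and 4, 3 and 0 in control IP, so that its groups overlapped throughout. TSPYL1 on chromosome 6, of the nucleosome assembly protein family, had 5, 6 and 5 clusters in SCAF4 IP, 4, 4 and 7 in SCAF8 IP and 1 to 7 in the inputs, and all 18 lists held at least 1. HNRNPA0 on chromosome 5, an RNA-binding protein gene of the hnRNP A/B group, had 31 clusters in the 9 inputs and 20 in the 6 SCAF IP lists. By list, it had 2, 3 and 2 clusters in SCAF4 IP, 5, 4 and 4 in SCAF8 IP and 2 to 5 in each input, so that its groups overlapped. CENPB on chromosome 20, whose protein binds centromeric satellite DNA, had 1 to 4 clusters in the IP lists and 1 or 2 in each of the 9 inputs. TSPYL1, HNRNPA0 and CENPB were the genes with clusters in all 18 lists.

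HSPA1B on chromosome 6, which encodes an inducible HSP70 chaperone, had 7, 6 and 5 clusters in SCAF4 IP, 6, 5 and 7 in SCAF8 IP, 1 to 4 in the inputs and 3, 2 and 0 in control IP. All 6 IP lists stood above all 9 inputs in these counts, which are not corrected for the number of clusters in a list. The IP lists are longer, with 18287 to 54404 clusters against 4567 to 12493 in the inputs. The counts therefore do not show a larger share of HSPA1B in the IP. How many of all genes have such a gap was not counted. JUN on chromosome 1, an immediate early gene and subunit of AP-1, had 5, 4 and 5 clusters in SCAF4 IP, 4, 5 and 6 in SCAF8 IP, 4, 5 and 1 in control IP and 0 to 7 in the inputs. Its control IP thus reached the level of the SCAF IP. Of its 29 IP clusters 14 were in the 5' UTR, 8 in the coding sequence and 7 in the 3' UTR. B3GALT6 on chromosome 1, a galactosyltransferase gene of glycosaminoglycan synthesis, had 3, 4 and 5 clusters in SCAF4 IP, 2, 1 and 5 in SCAF8 IP, 2, 1 and 1 in control IP and 0 to 2 in the inputs.

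The input counts of the remaining genes of the group of 14 ranged from 1 in UTP3 to 85 in TAS2R14. UTP3 on chromosome 4, which encodes a factor of ribosome biogenesis, had 2, 4 and 5 clusters in SCAF4 IP, 3, 1 and 3 in SCAF8 IP, 0 in control IP and 1 cluster among all inputs (SCAF8 input replicate 2). FEM1A on chromosome 19, a substrate receptor gene of cullin-RING ubiquitin ligases, had 3, 8 and 5 clusters in SCAF4 IP and 4, 5 and 6 in SCAF8 IP. Its 5 input clusters all came from the FLAG-SCAF8 line (1, 3 and 1), and 19 of its 37 clusters matched elsewhere. SOX4 on chromosome 6, an HMG box transcription factor gene, had 2, 8 and 3 clusters in SCAF4 IP, 4, 1 and 4 in SCAF8 IP and 0 or 1 in each input. CSTF2T on chromosome 10, the intronless relative of the gene of cleavage stimulation factor subunit CSTF2, had 2, 4 and 3 clusters in SCAF4 IP, 1, 3 and 4 in SCAF8 IP, 0, 1 and 0 in control IP and 0 to 2 in the inputs. All 17 IP clusters and all 10 input clusters of CSTF2T lay in its coding sequence. SEPHS2 on chromosome 16, which encodes a selenophosphate synthetase, had 4, 4 and 3 clusters in SCAF4 IP, 6, 1 and 2 in SCAF8 IP and 0 to 5 in the inputs. TAS2R14, whose clusters lie outside its exon, had 9 to 40 clusters in the IP lists and 4 to 22 in the inputs.

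**Figure D2:**
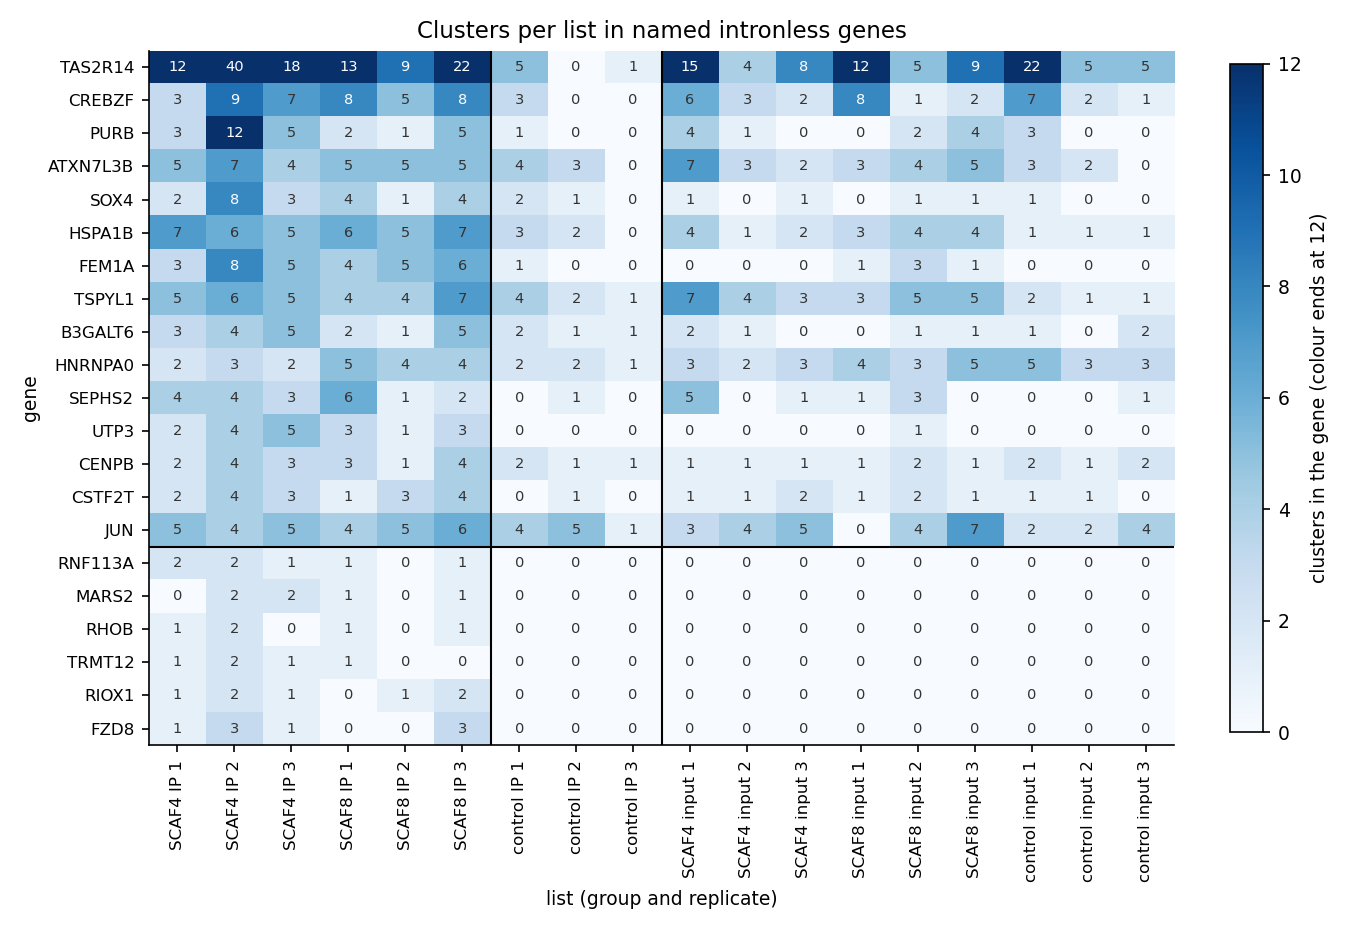
Number of clusters in each of the 18 lists. Above the line are the genes with most regions or with clusters in most inputs or control IP lists. Below it are 6 genes with clusters in at least 4 SCAF IP lists and in no other list. Shown there are only genes of which no cluster lay within another protein-coding gene or matched elsewhere. Vertical lines part SCAF4 and SCAF8 IP, control IP and inputs; CREBZF, TSPYL1, HNRNPA0, CENPB, HSPA1B and TAS2R14 were found in all 9 inputs, and the 6 lower genes have 0 there.

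The families below are given by how many of their members held clusters at all, beside 16.8% (158 of 942) of all intronless genes, and differences between them were not tested. Their cluster totals are sums over 6 SCAF IP lists and 9 inputs, in which all intronless genes together held 1235 and 553 clusters. None of the 190 odorant receptor genes, 98 KRTAP and LCE genes (hair and epidermal structural proteins), 26 USP17L genes, 16 interferon genes or 6 protocadherin genes held a cluster in any list. Of the 23 TAS2R genes 11 did, with 147 clusters in the SCAF IP lists, 99 in the inputs and 9 in control IP, of which TAS2R14 had 114, 85 and 6. In 10 of these 11 genes, all but TAS2R5, every cluster also lay within another protein-coding gene of the same strand. Of the 11 genes of the JUN, IER, CEBP, MAF, RHOB and KLF group, which holds immediate early and other signal-regulated genes, 5 held clusters, namely JUN, IER5, CEBPB, RHOB and CEBPA, with 57 in the IP lists and 34 in the inputs. SOX4 and SOX12, of 8 SOX genes, had 34 and 6, and FOXC1, FOXD1 and FOXE1, of 18 forkhead box genes, had 26 and 13. Of the KLHL, KBTBD and KCTD group (BTB domain proteins, many of them adaptors of ubiquitin ligases), 3 of 7 held clusters, with 15 in the IP lists and 2 in the inputs. Of 19 genes in the GPR, ADR, HTR, CHRM and DRD group of receptors, GPR135 and GPR27 held 8 clusters, all in the IP lists. Every cluster of GPR135 also lay within another protein-coding gene of the same strand. RNA abundance is not measured in these lists, and its part in these counts was not tested.

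In 30 of the 158 genes (19.0%), at least 3 of the 6 SCAF IP lists held a cluster and no input or control IP list did. Among all 9468 protein-coding genes with a cluster in any list, the same was true of 15.8%, so that the share in intronless genes was near the background. Of the 30 genes, 4 had clusters in 5 IP lists, 9 in 4 and 17 in 3, and none in all 6. Many of the 30 cannot be assigned with certainty. In MCTS2, MIURF, OXCT2, YY2 and others, every cluster also lay within another protein-coding gene of the same strand. In KIF4B, TTC30B, GLUD2 and others, every cluster matched elsewhere in the genome or the transcript of another gene. The region of MCTS2 also overlapped clusters of 2 inputs and 1 control IP. Examples chosen after their values were seen are RIOX1, which encodes a ribosomal oxygenase, with 1, 2 and 1 clusters in SCAF4 IP and 0, 1 and 2 in SCAF8 IP, all 7 in the coding sequence, and RNF113A, which encodes a RING finger protein of the spliceosome, with 2, 2 and 1 and 1, 0 and 1, also all in the coding sequence. MARS2, the gene of mitochondrial methionyl-tRNA synthetase, had 0, 2 and 2 clusters in SCAF4 IP and 1, 0 and 1 in SCAF8 IP. FZD8, a Wnt receptor gene, had 1, 3 and 1 and 0, 0 and 3. The SCAF IP lists are longer (18287 to 54404 clusters) than the control IP lists (1621 to 9638), and SCAF4 IP replicate 2, the longest, held a cluster in each of these 4 genes. Without replicate 1 and with at least 2 of the 4 remaining IP lists, 55 genes met the description.

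Consensus regions were then formed by removing regions that overlapped clusters of more than 1 input, regions in genes whose merged input regions reached 1 per 10 kb of gene and 2 kb flanks, and regions that overlapped a control IP cluster. Few regions of intronless genes remained. For SCAF4, 193 regions supported by 2 or more of 3 replicates became 106, then 40, then 37 in 32 genes. For SCAF8, 133 became 56, then 10, then 9 in 9 genes. These counts moved when a replicate was left out. Without replicate 1, 2 or 3, they were 58, 13 and 15 for SCAF4 and 12, 9 and 2 for SCAF8. In the pooled set, 248 became 150, then 59, then 56 in 43 genes, which is 22.6% of the regions at the start, against 38.1% (13889 of 36464) for regions in all protein-coding genes. The 43 genes were 27.2% of the 158, while 51.8% of the 9468 protein-coding genes with a cluster in any list had a pooled consensus region.

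The step on input density removed most of the regions that had passed the first step. In the pooled set, 76.2% of the regions in intronless genes lay in a gene above the limit, against 51.7% in all protein-coding genes. In 135 of the 158 genes, the gene and its flanks measure 10 kb or less, so that 1 input region anywhere in them reaches the limit, and 148 of the 158 are themselves shorter than 10 kb. The median length of the gene record was 2753 nt, against 37066 nt for the other protein-coding genes with clusters. Without this step, 135 pooled regions in 85 genes remained. At least 4 regions before removal were found in 18 genes, the 14 above and FOXC1, C6orf47, IER5 and RBM15B, which were below them in the order of ties. Of these 18, RBM15B alone kept regions, 3 of its 4, and UTP3 lost its 4 regions to 1 input cluster.

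**Figure D3:**
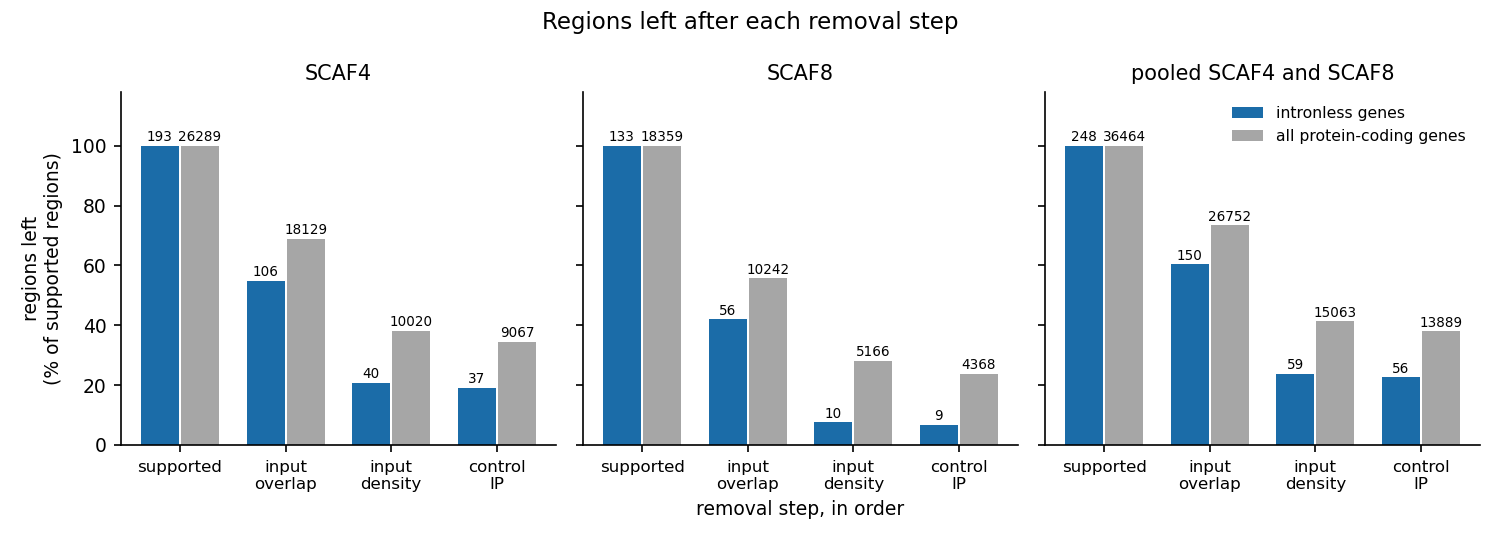
Percent of supported regions left after each removal step for SCAF4, SCAF8 and the pooled set, with the number of regions above each bar. Blue bars are regions in intronless genes and grey bars regions in all protein-coding genes; at the end 19.2, 6.77 and 22.6% of the former and 34.5, 23.8 and 38.1% of the latter remained.

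Of the 56 pooled consensus regions, 55 lay in a single exon, with a median width of 216 nt (100 to 589). The coding sequence held 44 of them, the 3' UTR 7 and the 5' UTR 4, whereas before removal 143 of 220 regions (65.0%) were in the coding sequence. At least 2 regions were kept in 11 genes, named here after their values were seen. RBM15B, whose protein is part of the complex that deposits N6-methyladenosine, kept 3 of 4 regions, with 0, 6 and 3 clusters in SCAF4 IP, 0, 0 and 3 in SCAF8 IP, 1 in control IP replicate 1 and 0 in the inputs. DCAF4L1 kept 3 as well, with 0, 3 and 1 clusters in SCAF4 IP and 0, 0 and 4 in SCAF8 IP. RNF113A, MARS2, RHOB (a small GTPase), TRMT12 (tRNA modification), MGAT2 (an enzyme of N-glycan synthesis), AMIGO3, GPR135, RPRM and ZNF830 kept 2 each. Every cluster of AMIGO3 and of GPR135 also lay within another protein-coding gene of the same strand, so that these regions may belong to either gene. SCAF4 IP replicate 2 and SCAF8 IP replicate 3, the longest lists of their groups, held 45 of the 69 SCAF IP clusters of the 11 genes, and 32 pooled regions were left without replicate 3.

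The next comparison concerned position along the mRNA, from 0 at the 5' end to 1 at the 3' end. In intronless genes, the mean position per list was 0.377, 0.407 and 0.360 in SCAF4 IP and 0.395, 0.372 and 0.418 in SCAF8 IP. It was 0.419, 0.405 and 0.347 in SCAF4 input and 0.473, 0.415 and 0.436 in SCAF8 input, and the lists of IP and input overlapped. The IP mean was 0.03 lower (0.388 against 0.416, exact permutation test, n = 6 and 6, p = 0.188), and SCAF4 IP was 0.01 below SCAF8 IP (exact permutation test, n = 3 and 3, p = 0.5). Control IP clusters lay nearer the 5' end, at 0.367, 0.323 and 0.296, a difference of 0.06 to the SCAF IP (exact permutation test, n = 6 and 3, p = 0.0238, adjusted p = 0.117). These control IP means rest on 55, 31 and 8 clusters.

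For spliced mRNAs, the mean position was 0.368 to 0.409 in the 6 IP lists and 0.451 to 0.482 in the inputs of the same lines, without overlap. Within the IP lists, intronless genes and spliced mRNAs differed by 0.01 on average, with intronless genes further 3' in 3 of 6 lists (exact sign-flip permutation test, n = 6 lists, p = 0.531). Within the inputs, intronless genes lay further 5' in 6 of 6 lists, by 0.04 on average. The difference between intronless and spliced genes was 0.05 higher in the IP than in the input lists (0.01 against −0.04, exact permutation test, n = 6 and 6, p = 0.00649), in a comparison added after the values were seen, and the p adjusted over all 17 comparisons was 0.0885. Without clusters that also lie in another protein-coding gene it was 0.03 (exact permutation test, p = 0.0866), and with the replicate as a block the exact permutation p was 0.0625. Along the mRNA, of 10 equal bins, bin 3 from the 5' end held most clusters of intronless genes in the SCAF IP lists, 19.7 ± 3.0% (SD, n = 6 lists), against 16.02 ± 5.3% in their inputs. Bin 3 was also the fullest bin in these inputs and in the control IP, where it held 23.3 ± 3.4% (SD, n = 3 lists).

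**Figure D4:**
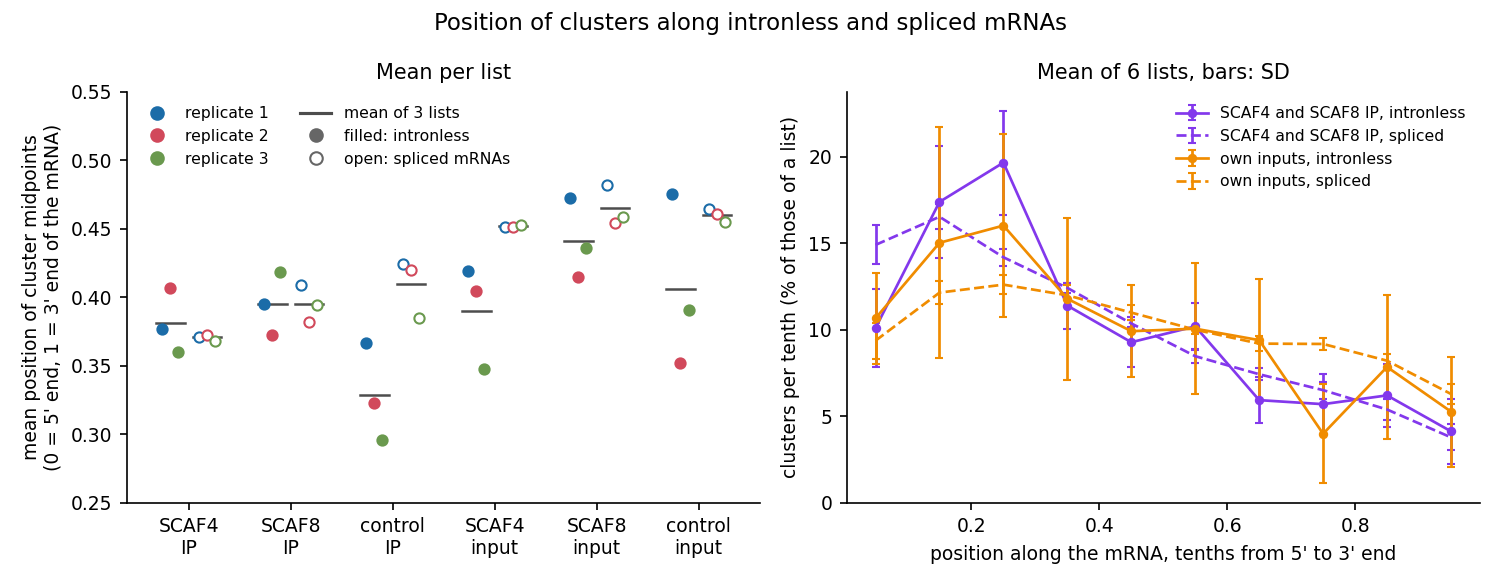
Left, mean position of cluster midpoints per list (0 is the 5' end and 1 the 3' end of the mRNA) for intronless genes (filled) and spliced mRNAs (open), with means of 3 lists as bars. Right, percent of the clusters of a list in each of 10 equal bins of the mRNA, as means of 6 lists with SD; open points of IP and input do not overlap for SCAF4 and SCAF8, while filled points do.

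By transcript part, 56.4 to 70.5% of the clusters of intronless genes were in the coding sequence in the 6 IP lists and 36.6 to 68.6% in their inputs. SCAF4 IP had 70.5, 62.4 and 68.5% and SCAF8 IP 58.6, 68.0 and 56.4%, while SCAF4 input had 46.2, 50.0 and 68.6% and SCAF8 input 36.6, 59.0 and 45.5%. The mean was 13.1 percentage points higher in the IP lists (64.1 against 51.0%, exact permutation test, n = 6 and 6, p = 0.0390), and the 3' UTR share was 14.2 points lower (29.4 against 43.6%, exact permutation test, n = 6 and 6, p = 0.0238). With the replicate as a block the exact permutation p was 0.0625 for the coding sequence and 0.03125 for the 3' UTR. The IP had the higher coding share in 5 of 6 pairs and the lower 3' UTR share in 6 of 6. The control IP, without a tagged protein, also had the lower 3' UTR share in 3 of 3 pairs, by −18.1, −12.1 and −11.7 points, with a mean of 28.3%. The adjusted p was 0.117 for both, so neither passed. Without replicate 1, which has longer reads, they were 8.05 points higher and 8.88 points lower (exact permutation test, p = 0.257 and 0.2). The 5' UTR share was 6.49 ± 0.93% in the IP and 5.39 ± 1.82% in the inputs (SD, n = 6 each, exact permutation test, p = 0.221). Control IP had 61.8, 54.8 and 62.5% in the coding sequence.

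Spliced mRNAs had a higher coding share in every one of the 6 IP lists, 65.8 to 79.8%. The difference of intronless genes to them was −8.95 points (exact sign-flip permutation test, n = 6 lists, p = 0.03125, the smallest that 6 lists allow, adjusted p = 0.0885, added after the values were seen). The control IP, without a tagged protein, also had negative differences, of −2.86, −13.7 and −16.3 points. In the inputs of the 2 FLAG lines the mean was −3.88 points, with lists from −9.97 to 8.27. The coding sequence makes up a similar part of the exon in genes with clusters, with a median of 42.6% in intronless and 44.6% in other protein-coding genes.

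**Figure D5:**
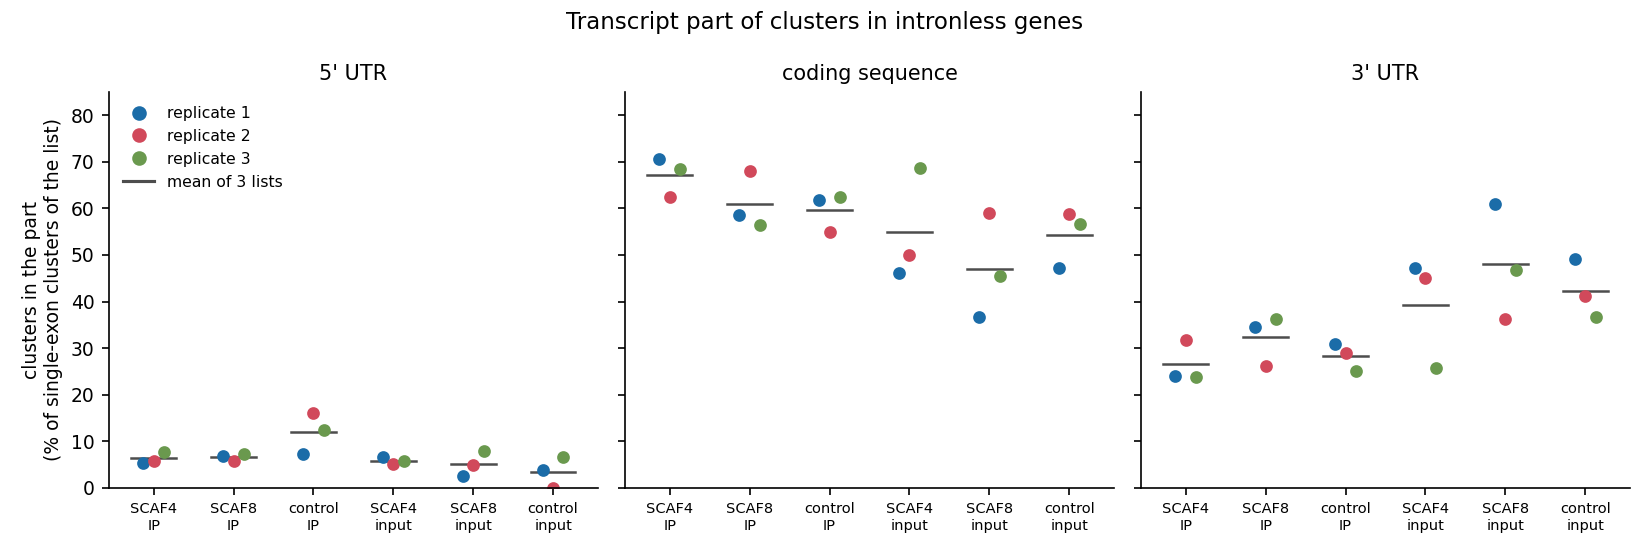
Percent of the clusters in single exons that lay in the 5' UTR, the coding sequence and the 3' UTR, for each list (points, coloured by replicate) with means of 3 lists (bars). Most IP points lie above the inputs of the same line in the coding sequence and below them in the 3' UTR, with SCAF4 input replicate 3 (68.6 and 25.7%) at the level of the IP.

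In base composition, the 100 nt around the midpoint held 53.0 ± 1.1% G+C in intronless genes and 49.8 ± 0.7% in exons of spliced genes (SD, n = 6 IP lists). The difference of 3.19 points was positive in 6 of 6 lists (exact sign-flip permutation test, p = 0.03125, the smallest possible, adjusted p = 0.117). U was 1.06 points lower (23.1 against 24.2%, exact sign-flip permutation test, n = 6 lists, p = 0.0625). In the control IP, G+C in intronless genes was 53.6, 55.7 and 57.0%, with a mean of 55.5% that was above that of the SCAF IP lists. In the inputs, G+C was 49.4 ± 3.0% in intronless genes and 47.0 ± 1.4% in exons of spliced genes (SD, n = 6). CGG or CGA occurred in 78.6 ± 3.1% of the windows of intronless genes in the IP lists and in 71.6 ± 2.2% of those of spliced genes, and in 71.5 ± 9.3% and 63.2 ± 4.0% in their inputs (SD, n = 6 each). The control IP had CGG or CGA in 85.5, 80.6 and 100.0% of its windows in intronless genes, a mean of 88.7%, also above the SCAF IP lists. The motif CCAGC was counted together with the forms in which the first base is G, the last is G or both are. It occurred in 42.5 ± 2.8% of the windows of intronless genes in the IP and in 31.8 ± 5.2% in their inputs. The lowest IP list was at 39.7% and the highest of these inputs at 38.6%, but control input replicate 2 was at 41.2%. Control IP had the motif in 30.9, 48.4 and 25.0% of its windows. In spliced genes the IP and input shares were 43.8 ± 2.3% and 36.8 ± 3.7%, and 42.2% of all exonic clusters had a match. CTCC or CACC occurred in 51.3 ± 3.9 and 49.1 ± 8.9% of the windows of intronless genes in IP and input, and around 49.6% of all exonic clusters. The polyadenylation hexamers AATAAA and ATTAAA occurred in 3.33 ± 1.27% of the IP windows of intronless genes and in 5.06 ± 0.22% of those of spliced genes, and around 5.39% of all exonic clusters. Their shares were also lower in intronless than in spliced genes in the inputs of these lines, 4.96 ± 2.23 against 6.59 ± 0.74%. The control IP had means of 1.68 and 5.07%. Motif shares were not tested.

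Few clusters lay past the end of intronless genes. In the 2 kb downstream of genes whose every transcript has 1 exon, 4 clusters were found in the 6 IP lists, next to 936 clusters in the genes, a ratio of 0.427 per 100. They were near EXOC8, TEX54, INAFM1 and F8A1, 1 cluster each, and SCAF4 IP replicate 2 and SCAF8 IP replicate 3 had 2 each. The inputs had 0 next to 341. For spliced genes, the ratio to clusters in exons was 2.41 per 100 in the IP lists and 2.32 in the inputs. With 4 clusters, no comparison between groups was made.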

How the data were processed

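PAR-CLIP clusters of 18 lists from 36 libraries were analysed. Per the labels and the study's methods, reads were demultiplexed with bcl2fastq 1.8, trimmed with cutadapt and Trim Galore, aligned to GRCh38 with Bowtie2 2.2.9, with a single place reported for reads that match several, and freed of duplicates with Picard. Soluble and chromatin reads were merged and clusters were called with PARalyzer above limits on reads and T→C transitions. The deposited lists give chromosome, start and end, strand and a score without a name, used here only to split each list at its median score. Read depth is unknown. Read length was 100 nt for replicate 1 but 75 nt for the other replicates, so values without replicate 1 are values at 1 read length.

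Genes came from GENCODE 44, and the longest protein_coding transcript gave position and transcript part. Shares were compared as log2((k + 0.5)/(n + 1)), with k the clusters in intronless genes and n all clusters of the list. Lists were compared by two-sided exact permutation, and values within lists by exact sign flips, with Benjamini-Hochberg adjustment over the 15 planned comparisons, or over 17 for the 2 added later. The smallest possible p was 0.00216 for 6 against 6 lists, 0.0119 for 6 against 3 and 0.1 for 3 against 3. p-values measure the spread between lists. Clusters overlapping by 1 nt were merged for regions, and input density was counted over all 9 inputs for protein-coding genes. Matches elsewhere were found with BLAST+ 2.17.0 (95% identity, 80% of the length). Python 3.11.15, pandas 2.3.3, NumPy 2.4.6, SciPy 1.17.1, pysam 0.24.0 and matplotlib 3.10.9 were used. The test was checked on simulated lists (6 against 6), where it called 2.5% of 200 sets without a difference and 100.0% of 200 sets with a log2 difference of 1. The simulated lists of a group shared 1 true share and varied by counting error only, without pairing of IP and input. This check therefore gives neither the error rate nor the power for the present lists, whose differences were smaller. 0 columns of per-sample values were left unmapped.

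Named genes were the 14 with most regions supported by 2 or more SCAF IP lists, the 6 with clusters in most inputs and the 4 with clusters in most control IP lists. Ties were ordered by the number of SCAF IP lists (for regions), then by the clusters in the lists concerned, then by symbol, which placed 14 of 18 genes with at least 4 regions and 4 of 8 genes with clusters in all 3 control IP lists. Beyond these, families were set by gene symbol. The genes, lists and comparisons were chosen with earlier results of these data known. IP and input of the same number were taken as coming from the same extract, because the labels give them the same replicate number. Over 2241 genes, deviations from the group means correlated at 0.0616 to 0.439 for 9 pairs of the same number and at −0.344 to 0.189 for 18 pairs of different numbers. Alternatives were other denominators, gene definitions, score limits and consensus limits, the replicate block, and leaving out each replicate. The sequence of 1 further window is not reported here.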

Additional observations from a re-analysis of the deposited data

Results flagged for a closer look

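Among the 6 inputs of the FLAG-SCAF4 and FLAG-SCAF8 lines, the share of clusters in intronless genes of SCAF8 input replicate 1 (0.579%) stood apart from the other 5 lists (0.849 to 0.955%), by the ratio of its gap to the range. Chance gives such a gap in about 1 of 20 groups, and this was the only flag among several measures and groups of lists checked in this way. Among all 9 inputs the share was not flagged (highest ratio 0.207, limit 0.493), with control input replicates 1 and 2 at 0.608 and 0.482%. SCAF8 input replicate 1 had the lowest coding share (36.6%) and the lowest G+C content (44.1%) of the 18 lists in intronless genes.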

How the results depend on the processing

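Of 214 values recomputed under alternatives, 162 kept their direction and their side of the threshold of 0.05 before adjustment (exact permutation tests), or a count within 1.5 times. The share in intronless genes against own inputs was −0.52 to −0.25 (log2) when leaving out each replicate (exact permutation test, p = 0.0286 to 0.171). It was −0.38 with the replicate as a block (exact permutation test, p = 0.0625), −0.21 against all 9 inputs (permutation test, p = 0.173), −0.0712 in genes whose every transcript has 1 exon and −0.30 in single exons. Against control IP it was −0.51 to 0.0832, SCAF4 against SCAF8 0.03 to 0.18 and −0.0469 over exonic clusters, SCAF4 IP and SCAF8 IP against their own inputs −0.49 to −0.32 and −0.55 to −0.18, and control IP against its input −0.11 to 0.75, leaving out each replicate. The sign against control IP, and of control IP against its input, turned without replicate 2.

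Leaving out each replicate, the mean position differed from own inputs by −0.04 to −0.01, from control IP by 0.0429 to 0.0800, between SCAF4 and SCAF8 by −0.0382 to 0.00811, and between intronless and spliced genes by 0.00214 to 0.0101. With merged regions counted once, the first 2 were 0.00983 and 0.0842, and in the upper part of each list by score the difference to control IP was 0.0317. Without clusters also in another protein-coding gene, intronless minus spliced was −0.00895 in the IP, and its difference to the inputs was 0.0331 (0.0483 with the replicate block, 0.0363 to 0.0639 leaving out each replicate). The coding share was 8.05 to 16.9 points above own inputs (13.1 with the replicate block, exact permutation test, p = 0.0625) and its difference to spliced genes −10.5 to −7.63 points, the 3' UTR share differed by −18.2 to −8.88 points, and the 5' UTR share by 0.827 to 1.28 points and by −0.211 at or above the median score. G+C was 2.87 to 3.46 points above spliced genes, and U −1.27 to −0.695, or −1.37 in the clusters as called. The block changed no call other than those given.

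Consensus regions numbered 13 to 58 for SCAF4, 2 to 12 for SCAF8 and 32 to 80 pooled when leaving out each replicate. They were 10, 2 and 31 with 3 of 3 replicates or 3 of 6 lists and 94, 48 and 135 without removal by input density, and 5 for SCAF8 outside other protein-coding genes. Genes with a pooled region numbered 30 to 47 leaving out each replicate, 11 with at least 2 regions and 85 without removal by input density. Genes in SCAF IP lists alone numbered 30 to 55, and 50 in at least 2 and 0 in all 6 lists. The cause of these changes was not tested, apart from fewer lists or limits by construction. Restricting the denominator to nuclear chromosomes could not change a value, as no cluster was mitochondrial, and for the same reason the planned comparisons of mitochondrial genes gave no value. Short lists limit all of these values, since a list of control IP held as few as 9 clusters in intronless genes.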

Other observations

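The median length of clusters in single exons was 165 to 191 nt in the 6 SCAF IP lists, against 143 to 161 nt for clusters in exons of spliced genes, and longer in 6 of 6 lists. In the inputs of the same lines it was 149 to 168 nt against 141 to 164 nt. This difference was seen in the data and not tested.

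The share of single-exon clusters with a score at or above the median of their list was 51.3 ± 3.9% in the IP lists and 49.7 ± 9.4% in their inputs (SD, n = 6 each), close to the split of the whole list.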
